A study of Rattus norvegicus with 9 samples.

Results

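The miRNAs described here are miR-208 (miR-208a), miR-208b and miR-499, which are encoded inside the genes of the cardiac and slow myosin heavy chains. Their members were all annotated rat sequences whose miRBase name is mir-208, mir-208b or mir-499, mature, * and precursor matches alike. These were 503 sequences with 28420 reads, of 31220 rat sequences with 6248238 reads and of 46358 annotated sequences with 7631327 reads in the whole series. Of the 503, mir-208 had 149 sequences with 4344 reads, mir-208b had 175 with 16562 reads and mir-499 had 179 with 7514 reads. The rule used names only and no measured value.

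Small RNA was sequenced from the free wall of the left ventricle of 3 male Sprague-Dawley rats aged 8 months, hearts 6, 7 and 8, killed with sodium pentobarbital and with no other treatment named. Each heart gave 1 library of epicardium, 1 of midmyocardium and 1 of endocardium, the outer and inner layers being cut off about 1 mm from their surface, so that each layer has 3 libraries, 1 from each animal. The layers are bulk tissue, in which fewer cells of a type and less RNA per cell cannot be told apart. Values are RPMM, reads scaled to 1000000 annotated reads of the library, and annotated reads ran from 283991 (midmyocardium of heart 6) to 1428025 (endocardium of heart 7), so that 3 reads are worth 2.10 to 10.6 RPMM. Markers of the cardiomyocyte (miR-1, miR-133a, miR-133b, miR-208 and miR-499 in the mature class) were all present, 5 of 5, and their sum ran from 51508 to 103837 RPMM in epicardium, 101441 to 138477 in midmyocardium and 58772 to 99961 in endocardium. Most of that sum was miR-133a, and miR-208 and miR-499 are themselves members.

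A miRNA is cut from a hairpin precursor, first by Drosha and then by Dicer, and either arm of the hairpin can yield the mature strand. Bases 2 to 8 of that strand, the seed, pair with target mRNAs. miR-208a, miR-208b and miR-499 are cut from introns of Myh6 (the fast alpha myosin of the adult rodent ventricle), Myh7 (the slow beta myosin of the fetal and stressed rodent heart) and Myh7b, and they are known as a family that adjusts the myosin composition of muscle. In the RefSeq annotation of the rat genome (GRCr8), Mir208a lies at chr15:32395552-32395634 on the minus strand, within the bounds of Myh6. Mir208b lies at chr15:32421615-32421726 on the minus strand, within Myh7, with 25980 bases between the 2 hairpins. Mir499a lies at chr3:164570612-164570676 on the plus strand, within Myh7b. All 3 hairpins were found in RefSeq. The 2 arms of each hairpin are in capitals below, because the arms are the units in which the reads are counted.
Mir208a hairpin: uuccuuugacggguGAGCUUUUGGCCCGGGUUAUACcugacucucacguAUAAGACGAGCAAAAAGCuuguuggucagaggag
Mir208b hairpin: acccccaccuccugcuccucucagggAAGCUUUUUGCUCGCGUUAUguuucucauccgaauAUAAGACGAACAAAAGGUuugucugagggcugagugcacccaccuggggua
Mir499a hairpin: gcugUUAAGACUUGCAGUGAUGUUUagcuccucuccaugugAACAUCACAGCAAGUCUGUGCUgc

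The mature entries show how close the members are, with the seed in capitals.
miR-208a-3p: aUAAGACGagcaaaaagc
miR-208b-3p: aUAAGACGaacaaaaggu
miR-499-5p: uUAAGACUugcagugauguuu
miR-208a-5p: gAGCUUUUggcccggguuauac
miR-208b-5p: aAGCUUUUugcucgcguuau
miR-499-3p: aACAUCACagcaagucugugcu
The 3p strands of miR-208a and miR-208b share their seed, and so do their 5p strands. The seed of miR-499-5p differs from that of miR-208a-3p by G8T alone (position 8 from the 5′ end). Over the 22 bases from the start of the entry, miR-208a-3p and miR-208b-3p have 19 in common and differ by G10A, A16G and C18T, all outside the seed. The 3p entries of miR-208a and miR-208b are 18 nts long, whereas that of miR-499-5p is 21 nts.

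Placed on these hairpins, with at most 2 mismatches, all 503 sequences found a single best position, and 0 matched the hairpin of another member as well as their own. Of the reads, 16538 were miR-208b-3p, 7297 miR-499-5p, 3628 miR-208a-3p, 712 miR-208a-5p, 217 miR-499-3p and 21 miR-208b-5p, and 7 lay over a loop. miR-208b, the product of the slow myosin gene, was therefore the most read of the members, with 787.5 reads of its 3p strand for each read of its 5p strand. The corresponding ratio was 33.6 for miR-499 (5p over 3p) and 5.10 for miR-208a (3p over 5p), and single libraries ran from 21.0 to 54.0 and from 2 to 9.33. The 5p strand of miR-208b had 1 to 5 reads a library and was too shallow for any comparison.

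The match classes of the deposited table divided these products unequally. In miR-208a-3p and miR-499-5p, sequences that kept the entry's start and had no mismatch were in the mature class where they ended from 2 nts before to 3 nts beyond the entry's end. Those that ended 3 nts short (46 reads of miR-499-5p) or 4 nts beyond (1646 reads of miR-208a-3p) were classed as precursor. Most reads of both miR-208 3p strands are 3 or 4 nts longer than the 18-nt entry, as the commonest sequences show (bases beyond the entry in capitals).
miR-208b-3p, 8469 reads, 51.2%: ataagacgaacaaaaggtTTGT
miR-208b-3p, 5469 reads, 33.1%: ataagacgaacaaaaggtTTG
miR-208b-3p, 1173 reads, 7.09%: TataagacgaacaaaaggtTTG
miR-208b-3p entry, 9 reads, 0.054%: ataagacgaacaaaaggt
miR-208a-3p, 1646 reads, 45.4%: ataagacgagcaaaaagcTTGT
miR-208a-3p, 1025 reads, 28.3%: ataagacgagcaaaaagcTTG
miR-208a-3p, 238 reads, 6.56%: ataagacgagcaaaaagcTT
miR-208a-3p entry, 84 reads, 2.32%: ataagacgagcaaaaagc
All of the 16538 reads of miR-208b-3p were classed as precursor and 0 as mature or *, including the 9 reads that equal the RefSeq entry and the 5469 that run 3 nts beyond it, although sequences of miR-208a-3p with those ends were in the mature class. The mir-208b entry's 19 mature-class reads were of the 5p strand. Of miR-208a-3p, 46.5% of reads were in the mature class (38.8 to 54.7% by library) and the others, mainly the 22-nt sequence with the most reads, were classed as precursor. miR-499-5p did not show this split, since 98.2% of its reads were in the mature class. A level read from the mature classes alone thus counted 0 reads of the most read of the 3 strands and about the level of 217 ± 89.5 RPMM (SD, 9 libraries) for miR-208a-3p, against 465 ± 228 RPMM by arm.

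miR-499-5p ended mostly where its entry ends, and its commonest sequence is the entry itself (bases beyond the entry in capitals).
miR-499-5p entry, 4286 reads, 58.7%: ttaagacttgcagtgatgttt
miR-499-5p, 884 reads, 12.1%: ttaagacttgcagtgatgtt
miR-499-5p, 530 reads, 7.26%: ttaagacttgcagtgatgtttA
miR-499-5p, later start, 364 reads, 4.99%: taagacttgcagtgatgtttAGC
miR-208a-5p entry, 454 reads, 63.8%: gagcttttggcccgggttatac
miR-208a-5p, 51 reads, 7.16%: gagcttttggcccgggttat
miR-208a-5p, 40 reads, 5.62%: gagcttttggcccgggttata
miR-499-3p, 38 reads, 17.5%: Gaacatcacagcaagtctgtgct
miR-499-3p, 31 reads, 14.3%: Gaacatcacagcaagtctgtgc
miR-499-3p entry, 11 reads, 5.07%: aacatcacagcaagtctgtgct
The fourth sequence of miR-499-5p was chosen after its values were seen. miR-499-3p began 1 base before its entry in 66.8% of its 217 reads and at the entry in 12.0%. The exact entry took 58.6% ± 3.93 (SD, 9 libraries) of miR-499-5p reads, from 51.9% (endocardium of heart 6) to 64.1% (midmyocardium of heart 6).

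The start of a read sets its seed, and here the 2 near-identical miR-208 strands differed. miR-208b-3p started 1 base early in 10.7% ± 1.68 of its reads (8.54 to 13.9% by library), against 0.525% ± 0.414 for miR-208a-3p (0 to 1.21%). miR-208a-3p started 1 base late in 9.18% ± 1.35 of its reads (6.39 to 10.97%), against 1.97% ± 0.358 for miR-208b-3p (1.35 to 2.42%). Both differences went the same way in 9 of 9 libraries, by 10.2 and 7.21 percentage points (adjusted p = 0.0039 each in a two-sided exact sign permutation over the libraries, adjusted over 4 comparisons chosen after seeing the data, and the smallest p it can give). The 9 libraries come from 3 hearts, over which the smallest p is 0.25; the heart means of the first difference ran from 9.66 to 11.04 points and those of the second from 6.36 to 7.94. The early start gives the seed AUAAGAC and the late start the seed AAGACGA, in place of UAAGACG. miR-499-5p resembled miR-208a-3p in its starts, with 8.95% of its 7297 reads starting 1 base late, which gives the seed AAGACUU in place of UAAGACU, and 0.055% starting early. Counted by start position over the 3 strands, UAAGACG was the seed of 64.1% of reads, UAAGACU of 24.1%, AUAAGAC of 6.66%, AAGACGA of 2.39% and AAGACUU of 2.38%. Reads with a mismatch inside the seed were not set apart in these shares.

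**Figure D1:**
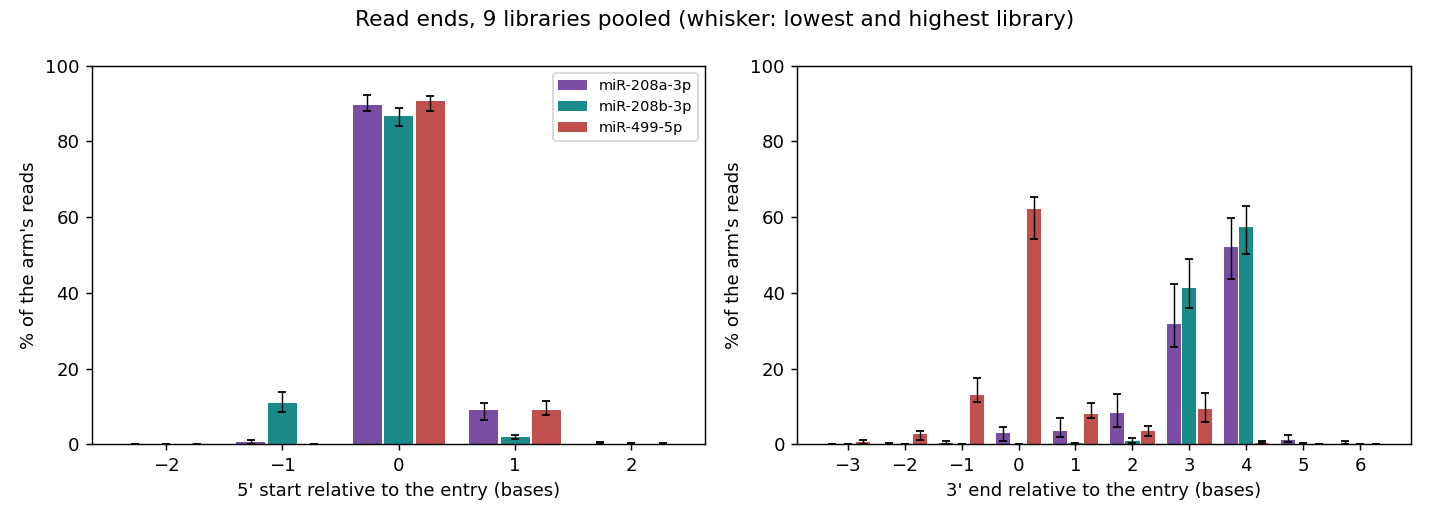
Share of the reads of miR-208a-3p, miR-208b-3p and miR-499-5p (y axis, % of the strand's reads over 9 libraries) by the position of the 5′ start (left) and the 3′ end (right) relative to the entry, in bases; whiskers run from the lowest to the highest library. Early starts stand at 10.9% for miR-208b-3p and 0.689% for miR-208a-3p, and the 3′ ends of both miR-208 strands peak 4 bases beyond the entry while miR-499-5p peaks at it.

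Start and end were linked within a strand. Of the miR-499-5p reads that began at the entry, 5.90% ± 2.04 ended 2 or 3 bases beyond it (1.63 to 9.13% by library), whereas of those that began 1 base late 81.2% ± 6.88 did so (70.2 to 91.7%). The difference was 75.3 percentage points, in the same direction in 9 of 9 libraries (adjusted p = 0.0039, the same exact permutation test). This comparison too was chosen after seeing the data, and over the 3 hearts the smallest p of that test is 0.25. The heart means of the difference ran from 72.9 to 78.3 points. The late-starting reads of miR-499-5p thus mostly ended later as well and were longer than the entry, as in the 23-nt sequence printed above. In miR-208b-3p early starts went with earlier ends. Of early-starting reads, 66.3% ± 8.501 ended 3 bases beyond the entry, against 39.0% ± 3.40 of reads with the entry's start (27.3 points, 9 of 9 libraries, adjusted p = 0.0039, the same exact permutation test). Ends 4 bases beyond made up 29.6% of the 1803 early-starting reads. Of the 325 miR-208b-3p reads that started late, 83.7% (95% Wilson interval 79.3 to 87.3%) ended 4 bases beyond, against 60.3% (59.5 to 61.1%) of the 14358 reads with the entry's start. In the 3p strand of miR-208a, 49.7% (44.3 to 55.1%) of 330 late-starting reads and 52.5% (50.8 to 54.2%) of 3253 with the entry's start ended 4 bases beyond, and these intervals overlap. Ends 3 bases beyond made up 21.5% (17.4 to 26.3%) of the late-starting reads, against 32.7% (31.1 to 34.4%) at the entry's start. Ends 5 bases beyond made up 8.18% (5.68 to 11.6%) against 0.40% (0.23 to 0.68%), on 27 and 13 reads. At these other ends the intervals do not overlap, and late starts went with later ends. Such intervals, and the 3-read limits, measure counting error alone, since the reads were amplified by PCR and carry no molecular identifier.

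**Figure D2:**
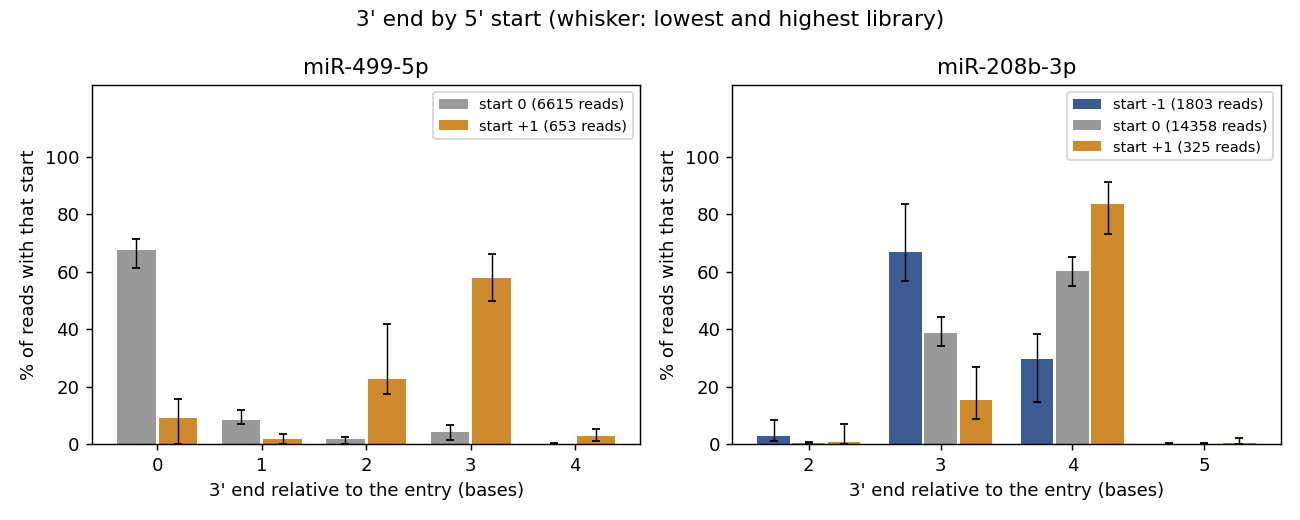
Share of reads (y axis, % of the reads with that 5′ start over 9 libraries) by 3′ end position relative to the entry, for miR-499-5p (left) and miR-208b-3p (right); bar colours give the 5′ start relative to the entry, and whiskers the lowest and highest library. Late-starting miR-499-5p reads stand at 57.7% for an end 3 bases on, against 4.43% for reads with the entry's start.

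The shares by single start position and by start and end together were not compared between the layers. Over the 23 single values set for the comparison of layers (the ratios of * to mature class, the ratio of miR-499 to miR-208, and the shares of exact, shifted and variant reads of 4 strands), the exact permutation test over layers gave adjusted p from 0.87 to 1.00. The lowest unadjusted p was that of the share of miR-208a-3p reads with another start, which was 10.6%, 11.3% and 10.2% in epicardium of hearts 6, 7 and 8, 10.5%, 12.0% and 10.6% in midmyocardium and 9.91%, 9.86% and 7.86% in endocardium. Its 3 endocardial values were below the other 6 (p = 0.039 unadjusted and adjusted p = 0.87 by the exact permutation test; 0.056 unadjusted within hearts). The Wilson intervals of the single libraries overlap, from 5.62 to 10.9% in endocardium of heart 8 and from 9.13 to 15.6% in midmyocardium of heart 7.

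Among the 7 ratios and shares by hairpin arm chosen after seeing the data, 3 had the lowest p over layers. The share of miR-208a-3p reads ending 4 nts beyond the entry was 47.8%, 43.7% and 44.9% in epicardium of hearts 6, 7 and 8, 53.5%, 54.0% and 59.8% in midmyocardium and 43.9%, 50.7% and 56.0% in endocardium. Every midmyocardial value was above every epicardial one, and the endocardial values overlapped with both. The same share of miR-208b-3p was 59.1%, 52.2% and 50.1% in epicardium, 57.6%, 62.9% and 62.3% in midmyocardium and 56.9%, 56.1% and 57.0% in endocardium. Its mean was also highest in midmyocardium, with an overlap between midmyocardium and epicardium. For each of these shares the exact permutation test over layers gave p = 0.10 (adjusted p = 0.24). Without the epicardium of heart 6, the adjusted p of the miR-208b-3p share was 0.05 by the same exact permutation test, and without any other single library it ran up to 0.475. The ratio of miR-499-3p to miR-499-5p was 0.032, 0.022 and 0.048 in epicardium, 0.0185, 0.0186 and 0.0206 in midmyocardium and 0.0475, 0.045 and 0.027 in endocardium. The 3 midmyocardial values were the lowest of the 9 (exact permutation p = 0.068 over layers, adjusted p = 0.24). They rest on 5, 18 and 33 reads of miR-499-3p, and the next value, in epicardium of heart 7, on 19.

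Levels of different miRNAs are compared here as reads, which ligation and PCR can favour by sequence, so an order of reads need not be an order of molecules. In reads, the order miR-208b-3p, miR-499-5p, miR-208a-3p held in 9 of 9 libraries, followed by miR-208a-5p (98.7 ± 26.0 RPMM), miR-499-3p (27.9 ± 7.60) and miR-208b-5p (3.30 ± 2.63). miR-208b-3p exceeded miR-499-5p from 1.18-fold (midmyocardium of heart 8) to 4.68-fold (endocardium of heart 6), and miR-499-5p exceeded miR-208a-3p from 1.42-fold to 3.14-fold. All members together took 0.290 to 0.482% of the annotated reads. For scale, miR-133a, the most read of the listed muscle miRNAs with a rat entry, stood at 88712 ± 24957 RPMM and miR-1 at 4081 ± 950 in the mature class.

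miR-208b-3p stood at 1805, 1585 and 1666 RPMM in epicardium of hearts 6, 7 and 8, at 2666, 2939 and 1803 in midmyocardium and at 3600, 2090 and 2176 in endocardium. Every endocardial library was above every epicardial one, and the midmyocardium of heart 8 fell among the epicardial values. Of 310 features tested, 4.52% had all their endocardial libraries above all their epicardial ones. By limma, with Benjamini-Hochberg adjustment over the 310 features, the log2 difference between endocardium and epicardium was 0.59 ± 0.30 (SE; 95% interval -0.07 to 1.26; adjusted p = 1.00). Without the endocardium of heart 6, its highest library, the difference was 0.34. Between midmyocardium and epicardium it was 0.52 ± 0.30 (adjusted p = 0.90), and between midmyocardium and endocardium -0.07 ± 0.30 (adjusted p = 0.99).

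miR-499-5p, from the Myh7b hairpin, stood at 700, 1106 and 880 RPMM in epicardium, 951, 1284 and 1524 in midmyocardium and 769, 532 and 1079 in endocardium of hearts 6, 7 and 8. The midmyocardial mean was the highest, but its values overlapped with both other layers. The summed cardiomyocyte markers also had their highest mean there (114546 ± 20757 RPMM, against 84959 ± 29050 in epicardium and 82522 ± 21308 in endocardium). That sum includes miR-499 but is mostly miR-133a (108325 RPMM in midmyocardium). The part of the markers in the difference was not tested. The log2 difference between midmyocardium and endocardium was 0.69 ± 0.33 (limma; 95% interval -0.04 to 1.43; adjusted p = 0.93), that between midmyocardium and epicardium 0.48 ± 0.33 (adjusted p = 0.90) and that between endocardium and epicardium -0.21 ± 0.33 (adjusted p = 1.00).

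miR-208a-3p, from the Myh6 hairpin, stood at 292, 424 and 619 RPMM in epicardium, 303, 508 and 966 in midmyocardium and 298, 242 and 535 in endocardium of hearts 6, 7 and 8. The values of heart 6 lay between 292 and 303 in all its layers, and the 3 libraries of heart 8 lay above the 6 others. Of 310 features, 1.29% had all libraries of heart 8 above the others. That share covers only the heart and direction seen in miR-208a-3p. Features with another heart apart, or with heart 8 below, were not counted. The log2 difference of midmyocardium from epicardium was 0.32 ± 0.48, of endocardium from epicardium -0.33 ± 0.48 and of midmyocardium from endocardium 0.65 ± 0.48 (limma; adjusted p = 0.93, 1.00 and 0.93). This fit had no term for heart, so its SE includes the spread between hearts.

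Of the minor strands, miR-208a-5p stood at 83.0, 86.9 and 103 RPMM in epicardium, 151, 62.4 and 104 in midmyocardium and 118, 76.3 and 104 in endocardium. miR-499-3p stood at 22.4, 24.7 and 41.9, at 17.6, 23.9 and 31.3, and at 36.5, 23.8 and 28.9 RPMM in the same order. The layers overlapped for both strands, and their adjusted p-values in limma ran from 0.93 to 1.00. By the 7 match classes with enough reads in place of the arms, adjusted p ran from 0.90 to 1.00.

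None of the members was called between layers, and neither was any other feature. Of 312 rat features tested by match class, limma called 0 (0%) in each of the 3 comparisons of layers, and 12, 15 and 16 had an unadjusted p under 0.05 for endocardium against epicardium, midmyocardium against epicardium and midmyocardium against endocardium. edgeR's quasi-likelihood test and DESeq2 on the recovered reads also called 0 in each. The intervals above allow differences of more than 2-fold (1 on the log2 scale) for miR-208b-3p in endocardium over epicardium and for miR-499-5p in midmyocardium over endocardium. The 95% interval of miR-208a-3p in midmyocardium over endocardium, -0.42 to 1.71, does so as well. The members were thus not shown to be level across the wall.

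**Figure D3:**
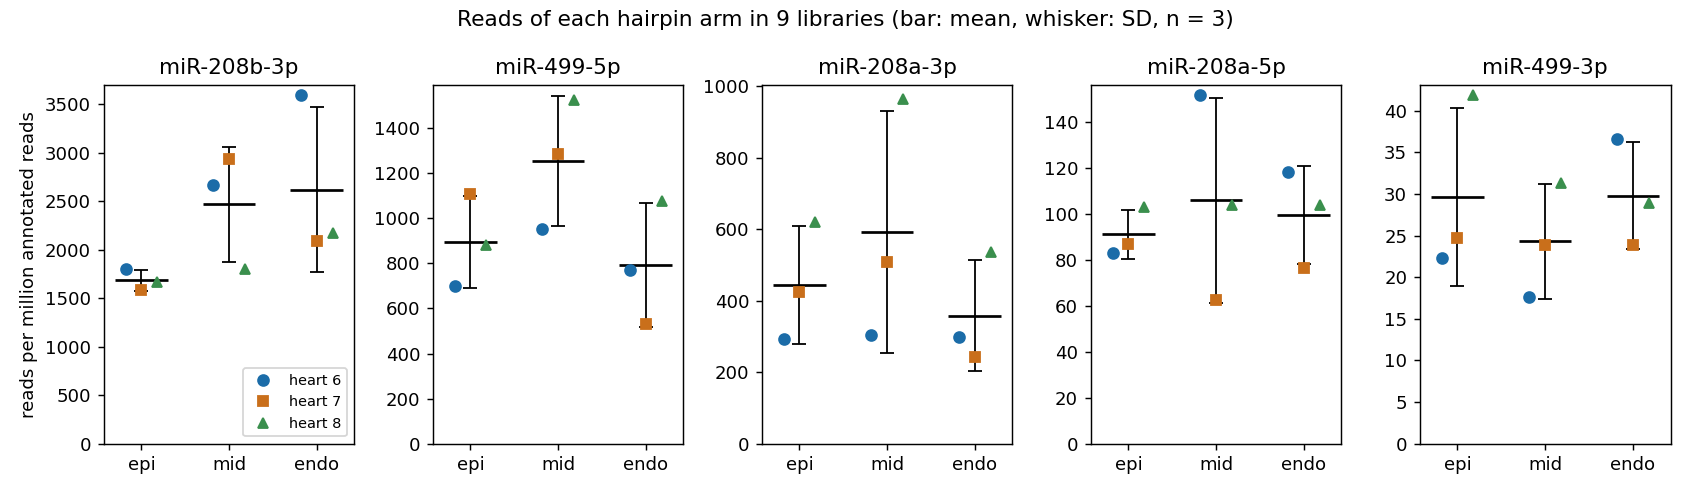
Level of 5 hairpin arms (y axis, RPMM, from 0) in epicardium (epi), midmyocardium (mid) and endocardium (endo); points are libraries with the heart given by shape and colour, bars are means and whiskers SD (n = 3). For miR-208b-3p the endocardial points (2090 to 3600) lie above the epicardial ones (1585 to 1805), and for miR-208a-3p the points of heart 8 (535 to 966) lie above all others.

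The hearts were compared with layer as a covariate. For miR-208a-3p, heart 8 was above heart 6 by 1.20 ± 0.29 on the log2 scale (SE) and above heart 7 by 0.87 ± 0.29, and limma's F test over hearts gave an adjusted p of 0.15 (0.0073 before adjustment). It was past the threshold with a pseudocount of 10 (adjusted p = 0.045) and in edgeR's quasi-likelihood test (adjusted p = 0.013), and missed it with TMM factors (0.065). For miR-208b-3p the adjusted p over hearts was 0.70, for miR-499-5p 0.71, for miR-208a-5p 0.62 and for miR-499-3p 0.70. Over all 312 features, limma called 0 (0%) between hearts, with 41 under an unadjusted p of 0.05, and edgeR's quasi-likelihood test called 15.

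Ratios within a library do not depend on its total. The ratio of miR-208b-3p to miR-208a-3p was 6.19, 3.73 and 2.69 in epicardium of hearts 6, 7 and 8, 8.80, 5.78 and 1.87 in midmyocardium and 12.1, 8.65 and 4.06 in endocardium. In each of the 3 layers it was highest in heart 6 and lowest in heart 8, and in each heart it was highest in endocardium. As a share of both strands, miR-208b-3p ran from 65.1% (95% Wilson interval 63.4 to 66.8%) in midmyocardium of heart 8 to 92.4% (91.3 to 93.3%) in endocardium of heart 6. The exact permutation test over hearts gave p = 0.029, and 0.028 with hearts permuted within layers, the smallest it can give there. Adjusted over the 7 ratios and shares chosen after seeing the data, these were 0.10 and 0.097, past no threshold. Over layers the same ratio gave p = 0.45 (adjusted p = 0.63) by the exact permutation test, and 0.11 (adjusted p = 0.27) with layers permuted within hearts.

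The sum of the 2 strands, which share a seed, was taken as well. The means were 2988 ± 901 RPMM for heart 6, 2596 ± 755 for heart 7 and 2589 ± 264 for heart 8. By layer it was 2130 ± 141 in epicardium, 3062 ± 349 in midmyocardium and 2980 ± 817 in endocardium (SD, n = 3). The ratio of miR-499-5p to miR-208a-3p was 2.40, 2.61 and 1.42 in epicardium, 3.14, 2.52 and 1.58 in midmyocardium and 2.58, 2.20 and 2.01 in endocardium, lowest in heart 8 in each layer (p = 0.018 over hearts by the exact permutation test, adjusted p = 0.10). The ratio of the 5p to the 3p strand of miR-208a itself was 0.285, 0.205 and 0.166 in epicardium, 0.50, 0.123 and 0.107 in midmyocardium and 0.396, 0.316 and 0.194 in endocardium. It too was highest in heart 6 in each layer (exact permutation p = 0.082 over hearts and 0.028 within layers, adjusted p = 0.19 and 0.097). These 3 ratios share the reads of miR-208a-3p and are not separate observations.

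**Figure D4:**
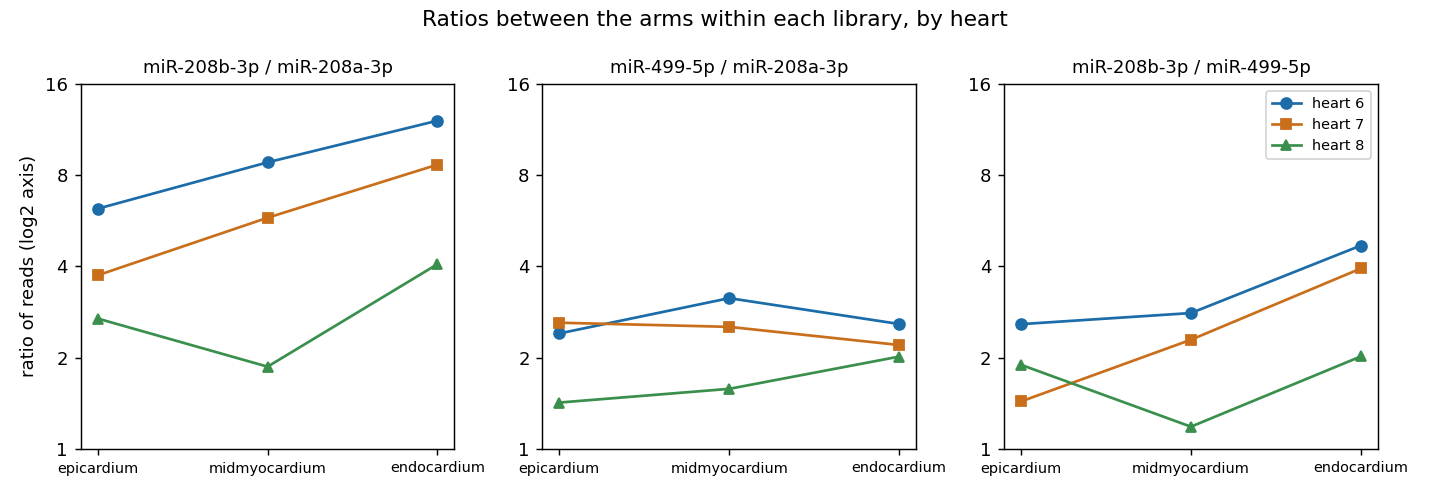
Ratio of reads between strands in each library (y axis, log2 axis) across epicardium, midmyocardium and endocardium, with 1 line per heart. The miR-208b-3p to miR-208a-3p ratio of heart 6 (6.19 to 12.1) lies above that of heart 7 (3.73 to 8.65) and heart 8 (1.87 to 4.06) in every layer.

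Across the 9 libraries, which come from 3 hearts and share their totals, the rat features of at least 100 RPMM most like each strand in log2 level were given by Pearson's r as a description, among 147 features. For miR-208b-3p they were miR-27b (r = 0.82), miR-322 (0.73) and miR-504 (0.73). For miR-208a-3p they were miR-30e (0.83), miR-301a (0.75) and miR-340 (0.75), and for miR-499-5p miR-450a (0.91), miR-151 (0.89) and miR-29b (0.85). The minor strand miR-208a-5p was closest to miR-26b (0.70), miR-103 (0.67) and miR-181c (0.63), and miR-499-3p to miR-532 (0.80), miR-101a (0.78) and miR-101b (0.76). Among the members, miR-499-5p and miR-208a-3p had r = 0.83, whereas miR-208b-3p had r = -0.35 with miR-208a-3p and -0.07 with miR-499-5p.

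Of the listed muscle miRNAs outside the members, miR-1, miR-133a and miR-133b were tested and 0 of 3 passed the threshold in either direction in any comparison of layers (limma, adjusted p from 0.90 to 1.00) or between hearts (0.68 to 0.93). miR-133a was 79911 ± 28592 RPMM in epicardium, 108325 ± 19548 in midmyocardium and 77899 ± 20573 in endocardium, with its highest mean in midmyocardium like miR-499-5p. miR-206, a miRNA of skeletal muscle, had 1 read. miR-486 was filed under entries of other species, at 141375 ± 38334 RPMM, and was not in the fit.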

How the data were processed

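TruSeq small RNA libraries of 3 layers of 3 rat hearts were trimmed and annotated by the authors against miRBase 18 in CLC Genomics Workbench 4.0. They deposited annotated sequences in RPM (RPMM) on the annotated reads of each library, a grouped table in which the signal is RPM on 2 totals, and, for unannotated sequences, the authors gave the raw read count (0 of 13317 held a 15-nt stretch of a member hairpin). All RPMM values were whole reads within 0.001 read, so reads were recovered. No column was left unmapped.

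Rat sequences were summed by name and match class, and 312 of 645 features had at least 10 reads in 1 library. Layers were compared by limma 3.58.1 (lmFit, eBayes, R 4.3.3) on log2(RPMM + 1) over all 9 libraries, Benjamini-Hochberg adjusted, with a threshold of 0.05, and hearts by limma's F test with layer as covariate. The reported fits of layers had no term for heart, so their SE and intervals include the spread between hearts. Single values had exact permutation tests, two-sided, over 1680 assignments (smallest p 0.0036) or 216 within hearts (0.028). edgeR 4.0.16 and DESeq2 1.42.0 were alternatives on the recovered reads. Scripts (Python 3.11.15) were tested on simulated data. Replicates are separate hearts.

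Every member was named with its values, its exact entry, its commonest sequence and those with at least 5% of its reads, up to 6 (3 others of miR-499-3p and those of miR-208b-5p are not printed). For likeness the 3 features with the highest r were named. The members and lists were chosen with earlier results of these data known. Arms by hairpin (RefSeq, GRCr8), their ratios and the paired end shares were chosen after seeing the data. The heart number pairs libraries because it names the animal. Deviations from layer means correlated from -0.27 to 0.42 in 9 same-heart pairs, 6 of them over 0.1. In 18 pairs of libraries from different hearts and layers they ran from -0.43 to 0.38, 5 of them over 0.1, so the ranges overlap. With heart as a replicate block no call changed (0 called in each comparison of layers).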

Additional observations from a re-analysis of the deposited data

How the results depend on the processing

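No member was called between layers under any alternative, and over 462 refits the lowest adjusted p of a member was 0.60. Direction turned as follows, each for a log2 difference closer to 0 than 0.05 in the reported fit. For miR-499-3p, endocardium against epicardium, it was -0.00017 with TMM factors, -0.086 with edgeR and -0.060 with DESeq2. For the mir-208 mature class, midmyocardium against epicardium, it was -0.0329 with TMM and -0.0118 on the rat total. For miR-208a-5p, midmyocardium against endocardium, it was -0.072 on the rat total. The count called between hearts rose from 0 to 14 with a pseudocount of 10, 6 with TMM and 15 with edgeR, and miR-208a-3p, fitted by arm, passed in the first (adjusted p = 0.045) and the last (0.013). The cause was not tested. Leaving out 1 library at a time gave 0 to 1 called features for endocardium against epicardium (1 without heart 7's endocardium) and 0 to 4 between hearts (4 without heart 8's midmyocardium). It turned the direction of these log2 differences: miR-208a-3p (-0.11 to 0.72), miR-208a-5p (-0.17 to 0.46), miR-499-3p (-0.45 to 0.010) and the mir-208 mature class (-0.35 to 0.38) for midmyocardium against epicardium. For endocardium against epicardium they were miR-208a-5p (-0.024 to 0.29), miR-499-5p (-0.46 to 0.049), miR-499-3p (-0.13 to 0.31) and the mir-499 mature class (-0.47 to 0.044). For midmyocardium against endocardium they were miR-208a-5p (-0.28 to 0.35), miR-208b-3p (-0.21 to 0.18) and the mir-208b precursor class (-0.21 to 0.18). The difference of miR-208b-3p between endocardium and epicardium ran from 0.34 (without the endocardium of heart 6) to 0.73 over all alternatives. The * to mature ratio of miR-499 over exact entry sequences alone was not run, because 3 libraries had no such * reads. With layers permuted within hearts (replicate block), the lowest adjusted p of the 23 single values was 0.79, and none was called. Depth limits miR-208b-5p and miR-499-3p most.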
